A study of Mus musculus with 9 samples.

Results

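Interferon-stimulated genes are the genes that cells switch on in response to interferons, and 47 of them were followed here among the 17232 genes of an expression table of mouse bone marrow endothelium. They were taken from a list of gene symbols drawn up for this purpose, with earlier results of these data known. All 47 were found in the table. The libraries came from bone marrow of Nestin-GFP mice, a transgenic line in which GFP expression is driven by Nestin regulatory sequences, so that the GFP signal reports the transgene and not the endogenous gene. Cells were sorted into Nestin-GFPbright arterial endothelial cells (AECs; CD45- CD31+ PDPN- Sca-1high, high GFP), Nestin-GFPdim AECs (the same gate with low GFP) and sinusoidal endothelial cells (SECs; CD45- CD31+ PDPN+ Sca-1low). Each group had 3 libraries, numbered 1, 3 and 4. No treatment is given for any group, and the labels give neither the age of the animals behind a library nor whether libraries came from separate animals, so the p values measure the spread between these libraries.

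Interferons bind receptors that signal through the kinases JAK1, TYK2 and JAK2. Type I interferons lead to a complex with STAT2 and IRF9 that binds interferon-stimulated response elements, and interferon gamma leads to factors that bind gamma-activated sequences. The induced proteins act against viruses and intracellular microbes: they sense foreign nucleic acid, block its translation or replication, mark proteins with ISG15, or attack the vacuoles that hold microbes. Endothelial cells carry the receptors, and many of these genes also have a resting level without infection. Interferon is known to push dormant haematopoietic stem cells of the marrow into cycle.

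Levels are given as RPKM, read counts scaled to the length of the gene and the depth of the library, so they can be compared between genes. For the tests, 1 was added to each RPKM value and the log2 was taken. Then limma was run on the 16364 genes that reached 0.1 RPKM in 3 or more libraries. A gene counts as called where its p value, adjusted by Benjamini-Hochberg over all of them, is under 0.05. All 47 interferon-stimulated genes passed that filter on low values. Where AECs as a whole are compared with SECs, both AEC groups weigh equally. Reads in the listed genes ranged from 13896190 to 73475550 per library. The 47 genes together took 0.441% to 0.785% of them. Arterial markers were higher in AECs for 6 of 7 genes and sinusoidal markers were lower for 6 of 6, as the gates name them. By group, 6 of 6 sinusoidal markers were lower than in SECs in Nestin-GFPbright AECs and 2 of 6 in Nestin-GFPdim AECs. The summed RPKM of these 6 was 37.2 to 99.4 in Nestin-GFPbright AECs, 118 to 731 in Nestin-GFPdim AECs and 2046 to 3567 in SECs. The CD45- gate notwithstanding, neutrophil transcripts were present. The 12 neutrophil genes took 17.3% of the reads in Nestin-GFPbright AEC replicate 1, 13.6% in Nestin-GFPdim AEC replicate 1 and 8.75% in SEC replicate 1, and at most 4.21% in the other 6 libraries. Results are therefore also given without the libraries numbered 1. In such bulk samples, fewer cells of a type and less RNA per cell cannot be told apart.

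Interferon-activated factors bind response elements that often lie in the promoters of these genes, so the RefSeq windows from 250 bases before to 50 bases after each transcript start (GRCm38.p6) were searched for both response elements. The core of the interferon-stimulated response element (ISRE) was searched as GAAANNGAAA and its other-strand form TTTCNNTTTC, and the gamma-activated sequence (GAS) as TTCNNNGAA, which reads the same on both strands. Of the 47 genes, 34 had a window. The ISRE core was in the windows of 19 of the 34 genes (55.9%), against 3.99% of the 27025 genes with a window and 3.44% of the 32851 windows. A GAS was in 12 of the 34 (35.3%), against 9.55% of all genes with a window and 8.3% of all windows. Both were in 8 genes and neither was in 11. The pair stood at 1 fixed spacing in 3 immunity-related GTPase genes: the GAS began at -45 and the ISRE core at -34 in *Igtp*, at -75 and -64 in *Irgm2*, and at -81 and -70 in *Tgtp2*. A match is a description of the letters and not a shown binding site.

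The 150 bases before the transcript start are printed for 6 genes, 5′ to 3′ on the strand of the gene, with the matches in capitals. The first 3 were called higher in AECs, *Gbp3* was higher in every AEC library without being called, *Bst2* had nearly the same level in AECs and SECs, and *Irf1* shows a GAS. *Isg15* lies at chr4:156200819-156200968 on the minus strand, *Ifit1* at chr19:34640739-34640888 on the plus strand, *Rsad2* at chr12:26456453-26456602 on the minus strand, *Gbp3* at chr3:142559894-142560043 on the plus strand, *Bst2* at chr8:71537473-71537622 on the minus strand and *Irf1* at chr11:53769864-53770013 on the plus strand.
Isg15: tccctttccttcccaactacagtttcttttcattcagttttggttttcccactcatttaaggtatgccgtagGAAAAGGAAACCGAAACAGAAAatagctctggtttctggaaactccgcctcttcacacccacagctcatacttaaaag
Ifit1: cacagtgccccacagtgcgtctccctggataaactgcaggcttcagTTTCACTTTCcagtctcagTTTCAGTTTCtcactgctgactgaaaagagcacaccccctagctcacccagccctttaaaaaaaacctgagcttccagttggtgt
Rsad2: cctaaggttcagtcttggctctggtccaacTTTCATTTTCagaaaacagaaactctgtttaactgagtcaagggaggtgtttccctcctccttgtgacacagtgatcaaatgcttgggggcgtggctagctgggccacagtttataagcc
Gbp3: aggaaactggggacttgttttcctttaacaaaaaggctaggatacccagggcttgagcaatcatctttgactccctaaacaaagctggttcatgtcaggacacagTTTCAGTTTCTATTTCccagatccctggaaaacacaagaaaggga
Bst2: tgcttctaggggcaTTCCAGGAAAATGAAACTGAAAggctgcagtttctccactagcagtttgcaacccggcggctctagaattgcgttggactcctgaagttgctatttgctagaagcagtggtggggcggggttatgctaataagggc
Irf1: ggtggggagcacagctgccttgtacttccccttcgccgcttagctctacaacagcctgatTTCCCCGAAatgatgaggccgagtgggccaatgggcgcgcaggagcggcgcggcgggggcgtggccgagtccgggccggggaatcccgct
*Isg15* had 3 overlapping ISRE cores from -78 to -57, and *Ifit1* had 2 separate ones, at -104 and -85, read on the other strand. *Rsad2* had 1 at -120, also on the other strand. *Bst2* had a GAS at -136 that overlaps the first of 2 ISRE cores at -130 and -124, so that its capitals run together. The capitals of *Gbp3* are 2 overlapping ISRE cores at -45 and -39 on the other strand, and those of *Irf1* are a GAS at -90. Among the genes called in any comparison, the ISRE core was in the windows of 3 of 6, and among the genes that were not called it was in 16 of 28. *Irf7*, *Ifit2* and *Lgals3bp*, which were called, held no ISRE core in their windows.

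**Figure D1:**
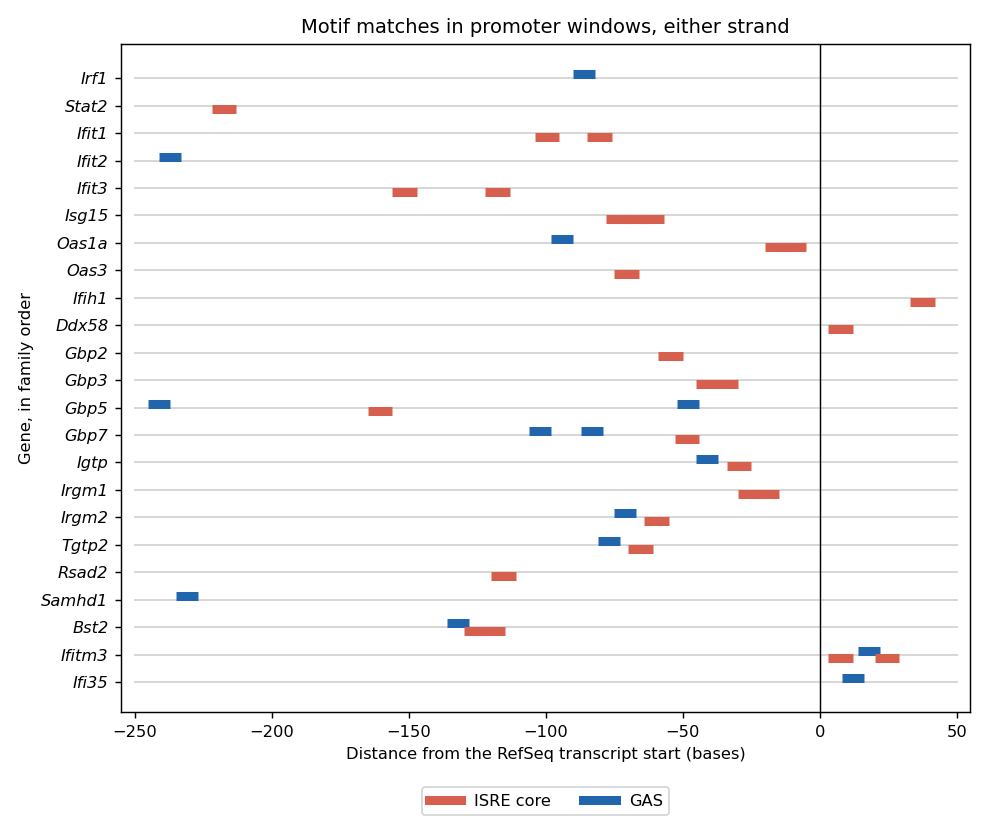
Matches to the ISRE core (red) and the GAS (blue) in the 23 genes with either, along the distance in bases from the RefSeq transcript start, with grey lines for the windows searched and genes in family order. Most matches lie within the 150 bases before the start, and *Igtp*, *Irgm2* and *Tgtp2* show the same close pair.

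All 3 endothelial populations expressed most of these genes. In every library, 43 of the 47 were above 1 RPKM and 23 were above 10 RPKM. By their mean RPKM over the 9 libraries, 4 genes were above 100, 30 between 10 and 100, and 13 below 10. Only 3 genes, *Oas2*, *Oas3* and *Mx1*, lacked a read in some library. The mean of the 47 genes on the log2(RPKM + 1) scale was 4.32, 4.55 and 4.66 in Nestin-GFPbright AECs 1, 3 and 4, and 4.32, 4.54 and 4.34 in Nestin-GFPdim AECs. In SECs it was 4.07, 4.02 and 3.74. All 6 AEC libraries were thus above all 3 SEC libraries, while the median of all tested genes, 1.88 to 2.21 over the 9 libraries, did not part them. The lowest value of a gene was most often in SEC replicate 4 (15 of 47 genes), and the highest in Nestin-GFPbright AEC replicate 4 (11 genes) and Nestin-GFPdim AEC replicate 3 (10 genes). SEC replicate 3 held the highest value of 9 genes, and SEC replicates 1 and 4 of 0.

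**Figure D2:**
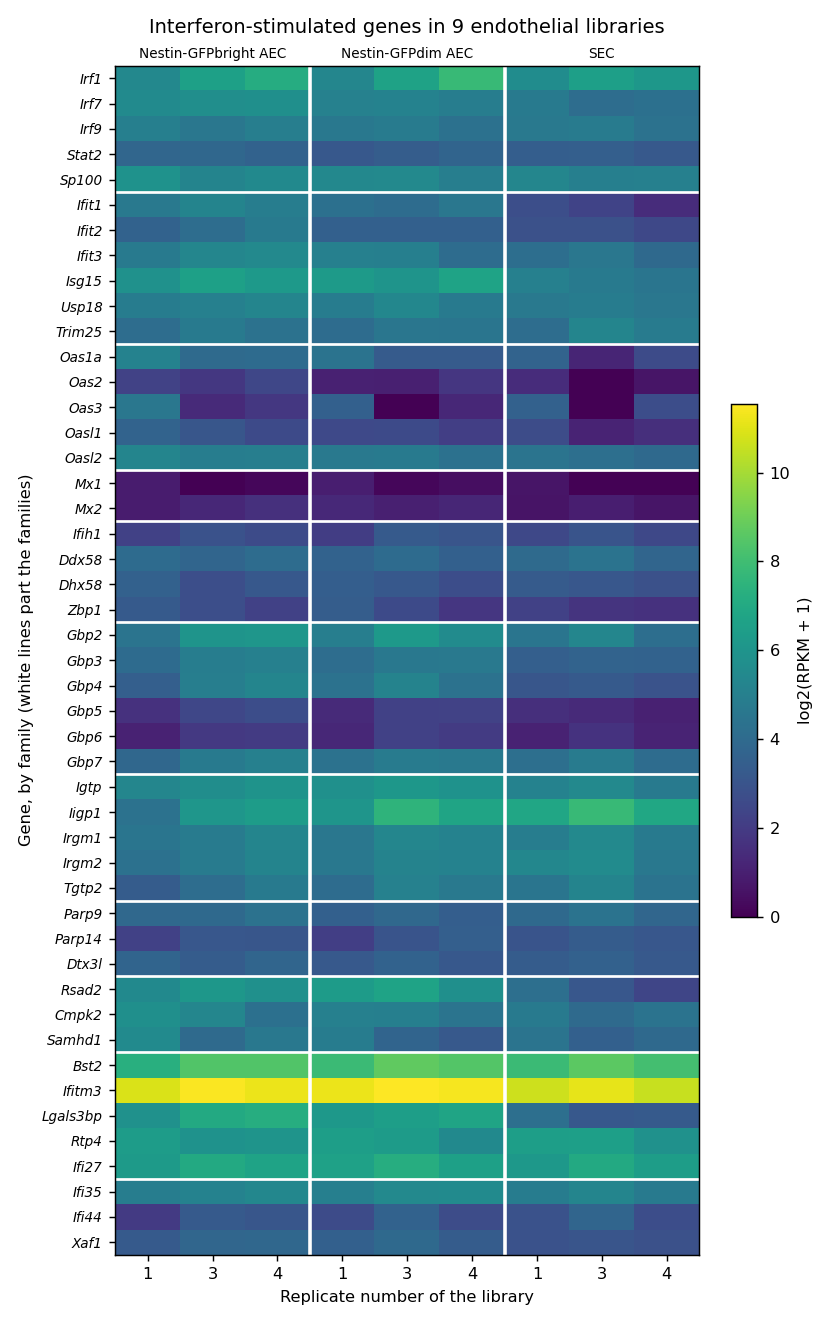
Level of each of the 47 genes, as log2(RPKM + 1) in colour, in the 9 libraries, with rows grouped by family and columns by group and replicate number. *Ifitm3* is the brightest row in every library, *Mx1* is near 0, and *Ifit1*, *Rsad2* and *Lgals3bp* are darker in the 3 SEC columns.

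In AECs, 6 of the 47 genes were higher than in SECs and 0 were lower. The 6 were *Lgals3bp* (chr11:118392751-118402092), *Rsad2* (chr12:26442753-26456452), *Ifit1* (chr19:34640871-34650009), *Isg15* (chr4:156199424-156200818), *Ifit2* (chr19:34550694-34576419) and *Irf7* (chr7:141262706-141266481), with the gene positions as the table gives them, on GRCm38. That is 12.8% of the 47, where 1.94% of all genes tested were called higher and 2.99% were called lower. The median log2 fold change of the 47 genes was 0.33, against 0.03 over all genes tested, and 36 of them had a positive value. Without overlap between the libraries, 9 genes were above SECs in all 6 AEC libraries and 0 were below, where 4.69% of all tested genes were above and 5.77% below. With the libraries numbered 1 left out, 7 of the 47 were called, all higher. Of the 15270 genes then tested, 2.36% were called higher and 1.88% lower. Among the 47, *Ifit2* was no longer called (adjusted p = 0.068), and *Gbp3* and *Gbp4* were. Markers of smooth muscle and pericytes, cells that surround arteries, were higher in the same contrast for 3 of 6 genes (*Acta2*, *Myl9* and *Rgs5*). The summed RPKM of these 6 was 19.2 to 366 in AECs and 4.98 to 9.43 in SECs, and their part in the result was not tested.

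Each AEC group was also set against the same 3 SEC libraries. Nestin-GFPbright AECs had the same 6 genes higher and 0 lower, where 1.74% of all tested genes were higher and 2.85% lower. Nestin-GFPdim AECs had 4 of them higher, *Rsad2*, *Lgals3bp*, *Ifit1* and *Isg15*, and 0 lower, against 0.764% and 1.19% of all tested genes. The median log2 fold change of the 47 genes was 0.39 in Nestin-GFPbright AECs and 0.37 in Nestin-GFPdim AECs. Some of these calls were lost when 1 library was left out, as were calls over all genes. A fit with fewer libraries can also call fewer genes, so a lost call does not show that it rested on that library. Without SEC replicate 3 or 4, 3 of the 47 genes were called for AECs (*Ifit1*, *Lgals3bp* and *Rsad2*). The share of all genes called fell from 4.93% to 1.71% and 1.62%. For Nestin-GFPdim AECs 0 were then called, and that share fell from 1.95% to 0.447% and 0.397%. Without Nestin-GFPdim AEC replicate 1 or 4 the dim count was 1, where 1.15% and 0.901% of all genes were called. Without Nestin-GFPbright AEC replicate 3 or 4, or without SEC replicate 3 or 4, the bright count was 2 (*Ifit1* and *Lgals3bp*). The share of all genes fell from 4.58% to 2.31%, 1.9%, 1.83% and 1.72%.

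**Figure D3:**
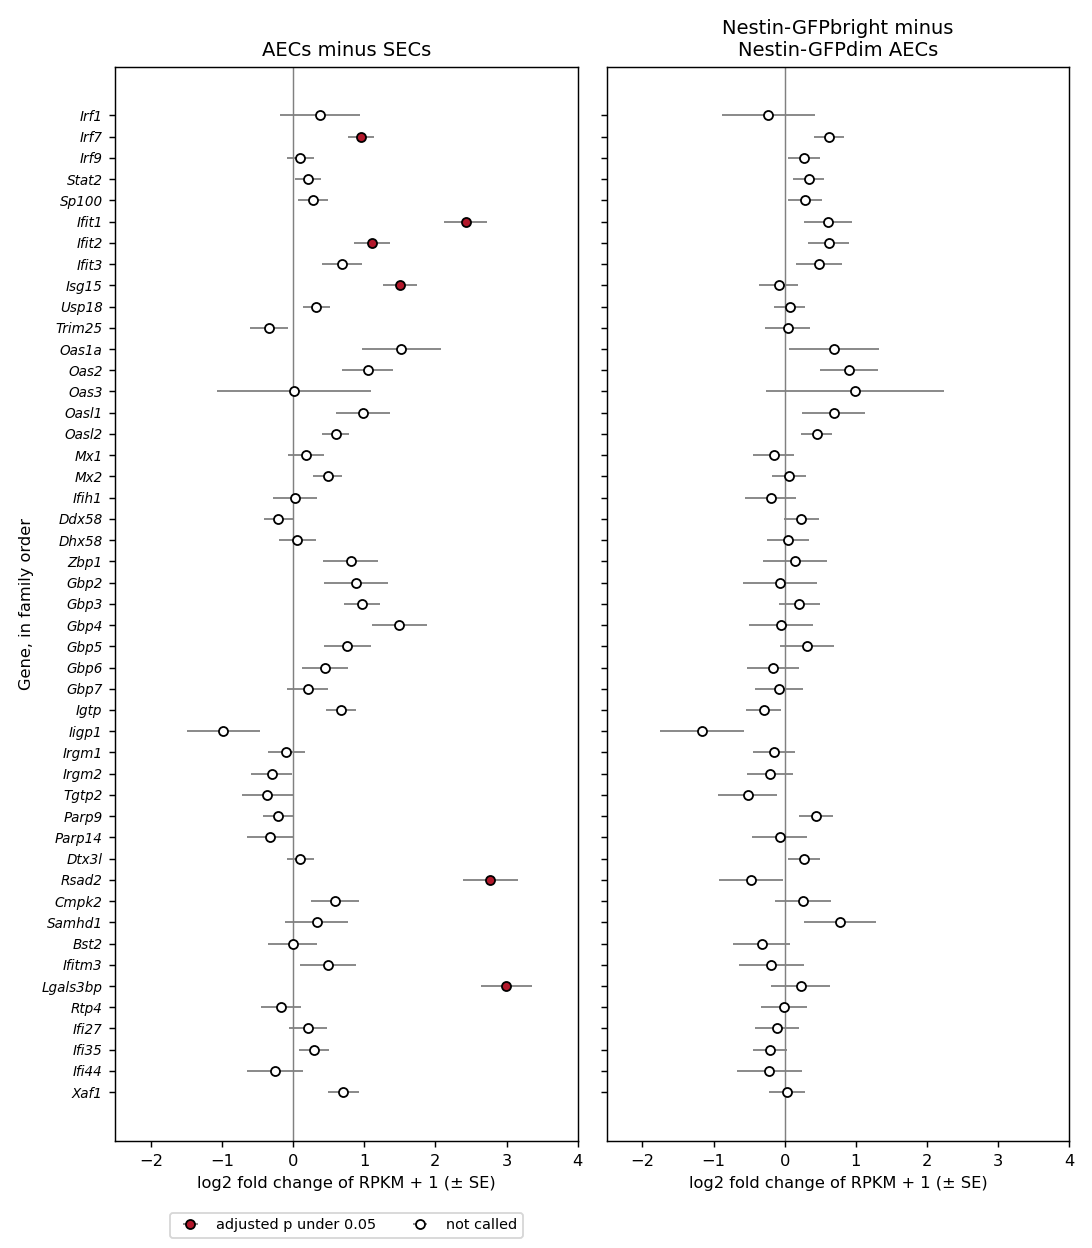
Log2 fold change of RPKM + 1 of each gene with its standard error, for AECs minus SECs (left) and Nestin-GFPbright minus Nestin-GFPdim AECs (right), in family order, with red points at an adjusted p under 0.05. The left panel holds 6 red points, all to the right of 0, and the right panel holds 0.

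Among the transcription factors of the response, *Irf7* was higher in AECs and the others were not called. IRF7 is the factor that amplifies type I interferon production once a first signal has been received. *Irf7* stood at 44.6, 52.1 and 52.3 RPKM in Nestin-GFPbright AECs 1, 3 and 4, at 33.2, 33.6 and 28.7 RPKM in Nestin-GFPdim AECs, and at 25.9, 16.7 and 18.5 RPKM in SECs. The 3 groups did not overlap, in the order bright, dim, SEC. The log2 fold change in AECs against SECs was 0.95 ± 0.18 (SE, adjusted p = 0.0211), a ratio of mean RPKM of 2.001. That call was lost without Nestin-GFPbright AEC replicate 3 or 4 and without SEC replicate 3 or 4 (adjusted p up to 0.131). Nestin-GFPbright AECs differed from SECs (1.27 ± 0.21, adjusted p = 0.0124), whereas Nestin-GFPdim AECs did not pass (0.64 ± 0.21, adjusted p = 0.233). The gap between the AEC groups was 0.63 ± 0.21 and did not pass either (adjusted p = 0.928).

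The partners of the type I complex were not called in any comparison. *Irf9*, the DNA-binding subunit of that complex, stood at 30.8, 23.1 and 29.9 RPKM in Nestin-GFPbright AECs, at 23.5, 26.9 and 18.6 RPKM in Nestin-GFPdim AECs, and at 24.3, 27.0 and 19.3 RPKM in SECs. *Stat2*, the STAT protein that carries the activation domain there, stood at 13.0, 13.7 and 11.3 RPKM in Nestin-GFPbright AECs, at 7.96, 9.605 and 12.1 RPKM in Nestin-GFPdim AECs, and at 10.03, 10.17 and 8.35 RPKM in SECs. For both genes the AEC and SEC libraries overlapped. The log2 fold changes of AECs over SECs were 0.10 ± 0.19 (adjusted p = 0.940) and 0.21 ± 0.19 (adjusted p = 0.787).

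*Irf1*, a factor induced above all by interferon gamma, varied more between libraries than between groups. It stood at 40.8, 92.8 and 140 RPKM in Nestin-GFPbright AECs 1, 3 and 4, at 39.0, 99.1 and 220 RPKM in Nestin-GFPdim AECs, and at 48.9, 90.6 and 68.8 RPKM in SECs. The library numbered 1 was the lowest of each group. Its log2 fold change in AECs against SECs was 0.38 ± 0.56 (adjusted p = 0.910). *Sp100*, a nuclear body protein, was not called.

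The family of IFIT proteins and ISG15 conjugation held 3 of the 6 called genes. *Ifit1*, an IFIT protein that binds RNA lacking the host cap marks and stops its translation, stood at 24.2, 35.8 and 29.1 RPKM in Nestin-GFPbright AECs and at 18.1, 16.1 and 22.9 RPKM in Nestin-GFPdim AECs. In SECs it stood at 5.84, 4.05 and 1.77 RPKM. The lowest AEC library was above the highest SEC library, and the bright libraries were all above the dim ones. The log2 fold change in AECs against SECs was 2.42 ± 0.30 (adjusted p = 0.00327), a ratio of mean RPKM of 6.27. The call held under all 20 alternatives (settings and left-out libraries) that were tried (adjusted p 0.00116 to 0.0217). Among these 20, the fit of only the groups compared repeats the reported fit in this comparison.

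*Ifit2*, a close relative in the same cluster on chromosome 19, stood at 11.3, 16.5 and 25.7 RPKM in Nestin-GFPbright AECs, at 10.7, 10.6 and 10.8 RPKM in Nestin-GFPdim AECs, and at 6.27, 6.37 and 4.71 RPKM in SECs. Here too the groups did not overlap. Its log2 fold change was 1.104 ± 0.25 (adjusted p = 0.0434), the weakest of the 6 calls: 10 of 20 alternatives lost it, with adjusted p up to 0.221, among them the fit without any one of the libraries except Nestin-GFPbright AEC replicate 1. *Ifit3* lay in the same direction, 0.69 on the log2 scale, and was not called (adjusted p = 0.289). Of the 50-base words of its transcript, 51.2% also occur in *Ifit3b*, so reads of that pair may be assigned to either or to none.

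*Isg15* encodes the ubiquitin-like protein that is attached to other proteins during the response. It stood at 57.3, 93.8 and 75.8 RPKM in Nestin-GFPbright AECs, at 77.8, 61.2 and 102 RPKM in Nestin-GFPdim AECs, and at 31.7, 26.5 and 21.7 RPKM in SECs. The AEC libraries were all above the SEC libraries, and both AEC groups overlapped each other. The log2 fold change was 1.5 ± 0.24 (adjusted p = 0.00950), a ratio of mean RPKM of 2.93, and it was lost without SEC replicate 3 and without SEC replicate 4 (adjusted p up to 0.0692). *Usp18*, the protease that removes ISG15, and *Trim25*, a ubiquitin ligase that activates RIG-I, were not called (adjusted p = 0.533 and 0.734).

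*Rsad2* had one of the largest differences. It encodes viperin, which makes a chain-terminating nucleotide that stops viral RNA synthesis. It stood at 43.6, 67.8 and 54.3 RPKM in Nestin-GFPbright AECs, at 80.1, 104 and 52.9 RPKM in Nestin-GFPdim AECs, and at 17.5, 7.82 and 4.37 RPKM in SECs. No SEC library reached an AEC library. The log2 fold change in AECs against SECs was 2.77 ± 0.39 (adjusted p = 0.00576), a ratio of mean RPKM of 6.77, and the call held in all 20 alternatives (adjusted p 0.00209 to 0.0391). *Cmpk2*, its neighbour on chromosome 12 and a mitochondrial nucleotide kinase, was not called (0.59 ± 0.34, adjusted p = 0.537). *Samhd1*, which breaks down the building blocks of DNA, was not called either (0.33 ± 0.44, adjusted p = 0.897).

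*Lgals3bp*, a secreted glycoprotein that binds galectin-3, had the largest difference of the 47 genes for AECs over SECs. It stood at 56.2, 127 and 144 RPKM in Nestin-GFPbright AECs, at 70.2, 87.0 and 105 RPKM in Nestin-GFPdim AECs, and at 17.8, 8.03 and 8.73 RPKM in SECs. The groups of AECs and SECs were far apart, and the library numbered 1 was the lowest of each AEC group and the highest of the SECs. The log2 fold change was 2.997 ± 0.36 (adjusted p = 0.00302), a ratio of mean RPKM of 8.53. Without the libraries numbered 1 it was 3.61 (adjusted p = 0.00202), and the call held in all 20 alternatives (adjusted p 0.000327 to 0.0277). The 3 libraries lowest in neutrophil reads, at 0.671%, 0.565% and 0.00665%, were Nestin-GFPdim AEC 3 and 4 and SEC 3, with 87.0, 105 and 8.03 RPKM of *Lgals3bp*. No Nestin-GFPbright AEC library is among them, and the part of neutrophil reads in the difference was not tested.

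**Figure D4:**
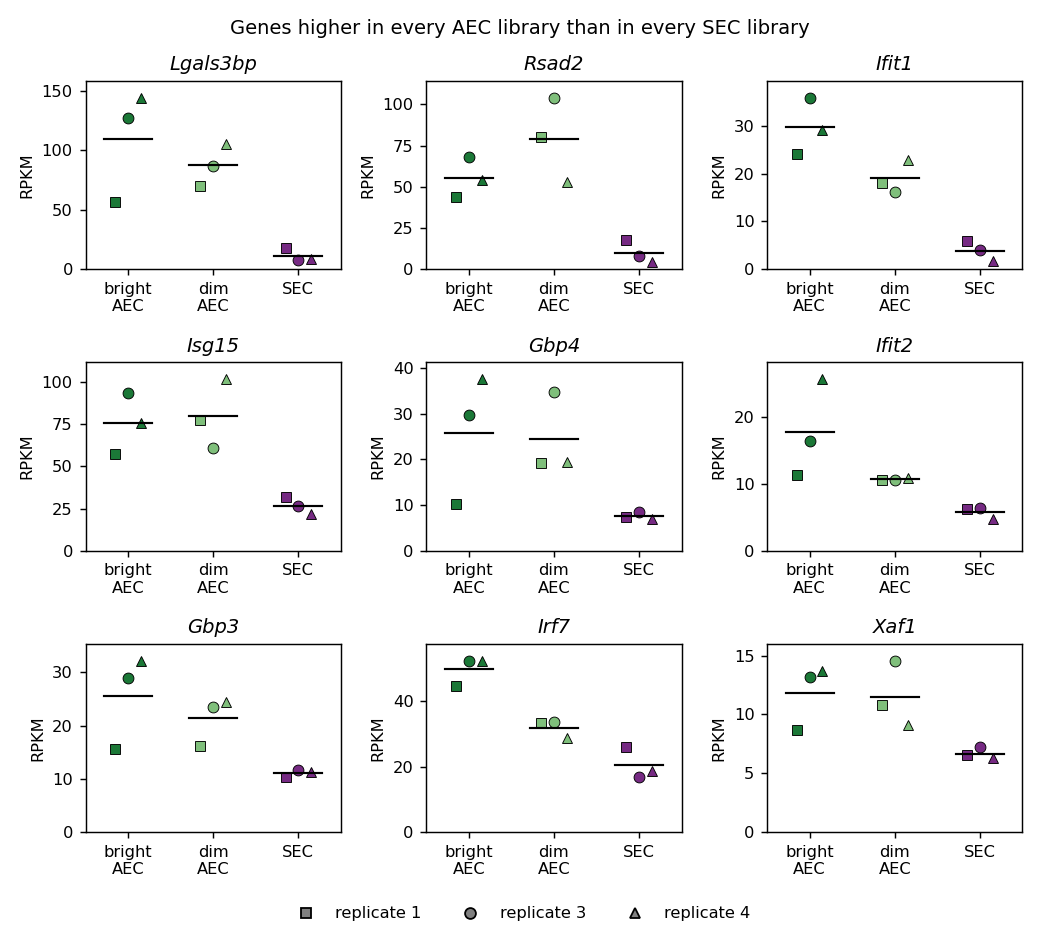
RPKM of the 9 genes whose 6 AEC libraries were all above their 3 SEC libraries, by group, with 1 symbol per replicate number, bars at the group means and every vertical axis starting at 0. *Irf7*, *Ifit1* and *Ifit2* also show the bright libraries above the dim ones, with 44.6 RPKM or more of *Irf7* in the former and at most 33.6 in the latter.

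Of the other proteins that act at membranes, none was called in any comparison. *Ifitm3*, which blocks the fusion of viruses with endosomal membranes, had by far the highest level of the 47. It stood at 1908, 2883 and 2363 RPKM in Nestin-GFPbright AECs, at 2395, 3006 and 2661 RPKM in Nestin-GFPdim AECs, and at 1648, 2246 and 1558 RPKM in SECs. It alone took 22.7% to 28.8% of the reads of the 47 genes. The AEC and SEC libraries overlapped, and the log2 fold change was 0.48 ± 0.39 (adjusted p = 0.742).

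*Bst2*, the tetherin that holds budding viruses at the cell surface, stood at 156, 336 and 341 RPKM in Nestin-GFPbright AECs, at 234, 431 and 347 RPKM in Nestin-GFPdim AECs, and at 233, 393 and 278 RPKM in SECs. The library numbered 1 was the lowest of each group, and the log2 fold change in AECs against SECs was -0.01 ± 0.35 (adjusted p = 0.998). *Ifi27*, a mitochondrial and nuclear membrane protein, stood at 78.6, 128 and 104 RPKM in Nestin-GFPbright AECs, at 97.6, 145 and 92.4 RPKM in Nestin-GFPdim AECs, and at 71.0, 128 and 84.2 RPKM in SECs. Its groups overlapped (0.20 ± 0.27, adjusted p = 0.894). *Rtp4*, a chaperone of receptors on their way to the membrane, stood at 84.0, 58.5 and 61.4 RPKM in Nestin-GFPbright AECs, at 87.4, 80.7 and 43.6 RPKM in Nestin-GFPdim AECs, and at 87.6, 90.1 and 56.0 RPKM in SECs. It too overlapped (-0.18 ± 0.28, adjusted p = 0.921).

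Guanylate-binding proteins coat the vacuoles of intracellular microbes, and all 6 of their genes had positive fold changes in AECs without 1 being called. The values ran from 0.20 to 1.49 on the log2 scale. *Gbp4* stood at 10.23, 29.8 and 37.5 RPKM in Nestin-GFPbright AECs, at 19.3, 34.8 and 19.4 RPKM in Nestin-GFPdim AECs, and at 7.41, 8.52 and 6.87 RPKM in SECs. *Gbp3* stood at 15.7, 28.9 and 32.2 RPKM in Nestin-GFPbright AECs, at 16.2, 23.6 and 24.4 RPKM in Nestin-GFPdim AECs, and at 10.3, 11.7 and 11.2 RPKM in SECs. For both, every AEC library was above every SEC library, and Nestin-GFPbright AEC replicate 1 was the lowest of the AEC libraries. Their log2 fold changes were 1.49 ± 0.39 (adjusted p = 0.0733) and 0.97 ± 0.25 (adjusted p = 0.0724). Both were called in 4 of 20 alternatives, among them the fits without Nestin-GFPbright AEC replicate 1 and without all libraries numbered 1, where the values were 1.82 (adjusted p = 0.0286) for *Gbp4* and 1.17 (adjusted p = 0.0374) for *Gbp3*. The row of *Gbp6* shares 81.6% of its exon bases with *Gbp10* and another gene model of the same symbol, so its level is uncertain. *Xaf1*, an inhibitor of XIAP outside this family that was chosen after its values were seen, was the other gene above SECs in all AEC libraries, at 8.66, 13.2 and 13.7 RPKM in Nestin-GFPbright AECs, 10.8, 14.6 and 9.13 RPKM in Nestin-GFPdim AECs, and 6.52, 7.21 and 6.25 RPKM in SECs (0.70 ± 0.22, adjusted p = 0.137).

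Immunity-related GTPases, the other large family that acts on such vacuoles, had a median log2 fold change of -0.30 in AECs, with 4 of 5 genes below 0 and 0 called. *Iigp1* was the most abundant of them. It stood at 19.3, 66.4 and 83.5 RPKM in Nestin-GFPbright AECs, at 65.1, 183 and 105 RPKM in Nestin-GFPdim AECs, and at 114, 221 and 115 RPKM in SECs. The bright libraries were all below the SEC libraries, the dim libraries overlapped both, and the library numbered 1 was the lowest of each group. The log2 fold change was -0.98 ± 0.51 (adjusted p = 0.460) for AECs and -1.56 ± 0.59 (adjusted p = 0.237) for Nestin-GFPbright AECs alone. *Igtp* was the exception in sign (0.67, adjusted p = 0.147). *Tgtp2* shares 89.8% of its 50-base words with *Tgtp1*, so the level of *Tgtp2* is uncertain.

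The OAS family, named for enzymes that make the short adenylate chains that activate RNase L, had positive fold changes in all 5 genes (median 0.98). The reported fit made 0 calls among them (smallest adjusted p = 0.141). A limma fit with a term for the replicate number called *Oas1a* for AECs (adjusted p = 0.0189), where 8.15% of all tested genes were called. For Nestin-GFPbright AECs that fit called *Oas1a*, *Oas2*, *Oasl1* and *Oasl2* (adjusted p 0.01455 to 0.0491), where 8.5% of all tested genes were called. *Oas3* had the largest spread within groups of the 47 genes, an SD of 1.80 on the log2 scale. It stood at 23.0, 1.60 and 2.64 RPKM in Nestin-GFPbright AECs 1, 3 and 4, at 10.8 and 1.47 RPKM in Nestin-GFPdim AECs 1 and 4, and at 10.9 and 5.69 RPKM in SECs 1 and 4. It had 0 reads in Nestin-GFPdim AEC replicate 3 and 1 read in SEC replicate 3. *Oas1a* stood at 33.7, 14.8 and 15.3 RPKM in Nestin-GFPbright AECs, at 20.2, 9.02 and 8.86 RPKM in Nestin-GFPdim AECs, and at 11.97, 1.27 and 5.22 RPKM in SECs. For both genes the library numbered 1 was the highest of each group. The log2 fold changes were 0.01 ± 1.08 (adjusted p = 0.999) for *Oas3* and 1.52 ± 0.55 (adjusted p = 0.219) for *Oas1a*, of whose 50-base words 57.6% also occur in *Oas1g*. Reads of *Oas1a* may therefore be split with that gene.

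Some of these levels were high where the share of neutrophil reads was high. In SECs, which had 8.75%, 0.00665% and 4.10% of reads in the neutrophil genes in replicates 1, 3 and 4, *Oas3* had 10.9 RPKM, 1 read and 5.69 RPKM. The library numbered 1 was the highest of all 3 groups for 7 of the 47 genes, *Oas1a*, *Oas3*, *Mx1*, *Dhx58*, *Zbp1*, *Cmpk2* and *Samhd1*, where 17.8% of all tested genes behaved so. It was the lowest of all 3 groups for 7 others, *Irf1*, *Trim25*, *Gbp3*, *Gbp6*, *Iigp1*, *Parp14* and *Bst2*, where 14.8% of all tested genes did. Both counts are near those shares. Markers of leukocytes and plasmacytoid dendritic cells were also higher in the libraries numbered 1, which was not so for every blood lineage: the summed RPKM of the erythroid genes was 4016 to 9271 in them and 25.3 to 33550 in the others. The summed RPKM of 4 leukocyte genes was 931 to 2367 in the libraries numbered 1 and 4.89 to 462 in the others. That of 6 genes of plasmacytoid dendritic cells, which are strong producers of type I interferon, was 299.5 to 701 and 1.81 to 90.4. No gene of these lists lacked reads in all AEC libraries, and the part of these cells in the levels was not tested.

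**Figure D5:**
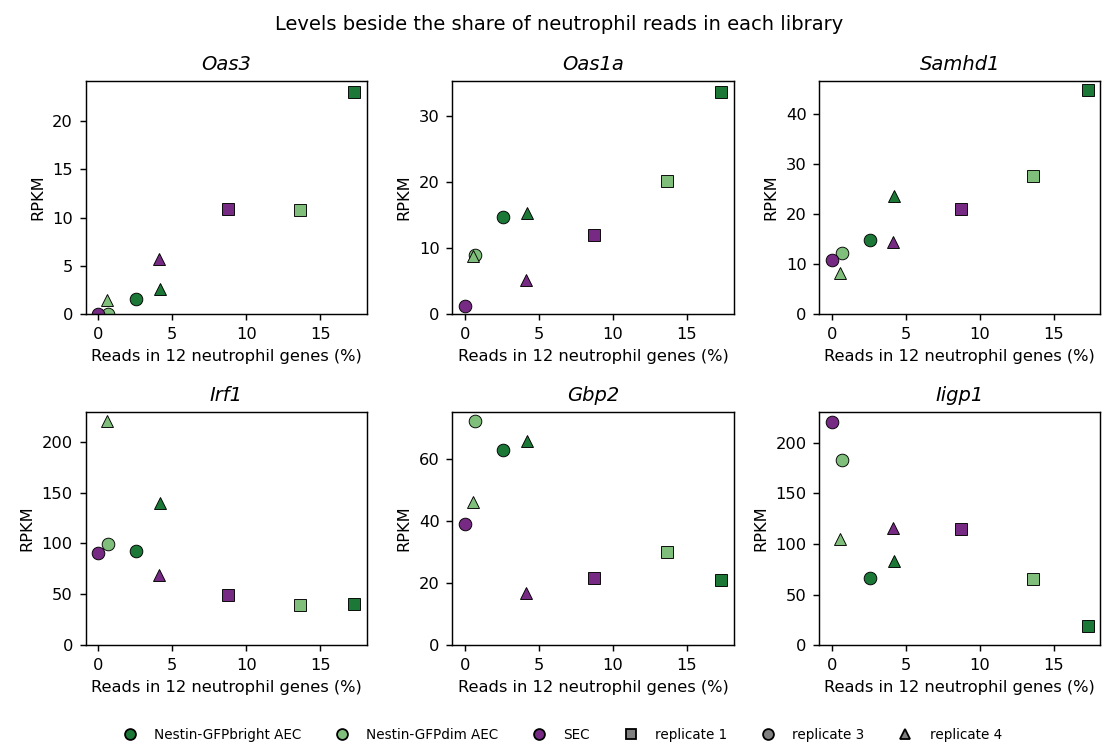
RPKM of 6 of the genes against the percentage of reads in 12 neutrophil genes, with 1 point per library, colours for the groups and symbols for the replicate numbers. The genes were picked by hand, and *Samhd1* and *Gbp2* lie outside the rule for values in every library. *Oas3*, *Oas1a* and *Samhd1* are highest in Nestin-GFPbright AEC replicate 1, at 17.3% neutrophil reads, and *Iigp1* is lowest there.

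The remaining families showed no call in any comparison. Among the sensors of nucleic acids, *Ddx58* (RIG-I) and *Ifih1* (MDA5), which detect viral RNA, *Dhx58* and *Zbp1* had fold changes from -0.21 to 0.81 on the log2 scale. Their mean RPKM ran from 4.83 to 14.3. The Mx genes, whose dynamin-like products trap viral particles, had the lowest levels of all families, with mean RPKM of 0.341 for *Mx1* and 1.14 for *Mx2*. *Mx1* had 0 reads in Nestin-GFPbright AEC replicate 3. *Parp9* and *Dtx3l*, which form a complex, and *Parp14* lay between -0.32 and 0.10. *Parp9* and *Dtx3l* overlap on opposite strands in 9.4% and 8.0% of their exon bases, and the kit does not mark strand. *Ifi35* and *Ifi44* were not called either (0.29 and -0.26 on the log2 scale).

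Between Nestin-GFPbright and Nestin-GFPdim AECs, 0 of the 47 genes were called in either direction, as was the case for 0.0% of all tested genes higher and 0.0% lower. At an unadjusted p under 0.05 there was 1 of the 47, *Irf7*, against 4.91% of all tested genes, and limma with voom on the recovered reads also called 0. The median log2 fold change of the 47 was 0.05, against 0.01 for all genes. Without overlap, 6 genes were higher in all bright libraries than in all dim ones, *Irf7*, *Ifit1*, *Ifit2*, *Oas2*, *Oasl1* and *Oasl2*, and 0 were lower. Of all tested genes, 3.62% were higher and 3.85% lower in that sense. All 5 OAS genes had positive values (median 0.70), and all 5 immunity-related GTPases had negative values (median -0.29). *Iigp1* had the lowest value of the 47, -1.16 ± 0.59 (adjusted p = 0.998), and *Oas3* the highest, 0.99 ± 1.25 (adjusted p = 0.998).

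Upstream of these genes, the chains of the type I and interferon gamma receptors were not called, and 2 other signalling genes were lower in AECs. Of 9 interferon genes looked for, only *Ifng* was among the table's genes. It was at most 0.829 RPKM. *Ifnar1* and *Ifnar2*, the chains of the type I receptor, had 10.1 to 24.5 and 32.6 to 56.1 RPKM over the 9 libraries. *Ifngr1* and *Ifngr2*, those of the interferon gamma receptor, had 110 to 212 and 9.30 to 35.3 RPKM. None of these 4 was called for AECs against SECs (adjusted p 0.661 to 0.961).

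*Jak1*, the kinase shared by all interferon receptors, was lower in AECs. It stood at 63.1, 63.1 and 43.9 RPKM in Nestin-GFPbright AECs, at 55.9, 113 and 67.6 RPKM in Nestin-GFPdim AECs, and at 247, 389 and 288 RPKM in SECs. The libraries were far from overlapping (-2.20 ± 0.28, adjusted p = 0.00354). *Mavs*, the mitochondrial adaptor of the RNA sensors, was lower as well: 13.96, 10.5 and 12.5 RPKM in Nestin-GFPbright AECs, 9.23, 12.9 and 12.3 RPKM in Nestin-GFPdim AECs, and 35.0, 62.7 and 33.6 RPKM in SECs (-1.75 ± 0.24, adjusted p = 0.00535). *Il10rb*, a chain of the interferon lambda and interleukin-10 receptors, was higher in AECs (0.86 ± 0.16, adjusted p = 0.0217). Of the receptors and kinases, 1 of 9 was higher and 1 lower, and of the upstream sensors and adaptors 0 of 12 were higher and 1 lower, where 1.94% of all tested genes were higher and 2.99% lower. Of the feedback inhibitors 0 of 7 were called.

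A further 67 interferon targets outside the 47 were listed, of which 65 were tested. In AECs, 4 were higher and 2 lower, with a median log2 fold change of 0.34 and 52 positive values. Over all tested genes 1.94% were higher and 2.99% lower, with a median of 0.03, so that the share of lower genes was near the background. The higher genes were *Cd274*, which encodes PD-L1, *Apol9b*, *Phf11b* and *Lgals9* (galectin-9). *Cd274* stood at 5.41, 13.9 and 19.9 RPKM in Nestin-GFPbright AECs, at 5.29, 11.7 and 13.2 RPKM in Nestin-GFPdim AECs, and at 1.70, 1.05 and 1.94 RPKM in SECs (2.18 ± 0.42, adjusted p = 0.0216). *Lgals9* rose less (0.87 ± 0.20, adjusted p = 0.0444). The lower genes were *Cxcl9*, a chemokine induced by interferon gamma, and *Gm4951*. *Cxcl9* stood at 3.64, 1.81 and 1.79 RPKM in Nestin-GFPbright AECs, at 16.8, 40.1 and 7.37 RPKM in Nestin-GFPdim AECs, and at 48.4, 53.4 and 45.3 RPKM in SECs. Its bright libraries lay below the dim ones and those below the SECs, with a log2 fold change of -2.68 ± 0.44 (adjusted p = 0.0117) for AECs over SECs. Against SECs, Nestin-GFPbright AECs alone had the same 4 higher and 2 lower genes, and Nestin-GFPdim AECs had 0 of 65 (smallest adjusted p = 0.0623). The difference between the AEC groups itself passed for 0 of 65.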

How the data were processed

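RNA of sorted cells had been amplified with an ultra low input kit and made into transposase-based libraries that do not mark strand. The authors aligned reads with STAR, counted them with HTSeq, computed RPKM with TMM scaling in edgeR 3.12.0 per the labels, removed low genes and deposited log2 RPKM values of 17232 genes. The labels name mm9, but the table's positions overlap the same gene ID on GRCm38 for 99.9% of the genes compared. To recover reads, the prior of 0.25 reads in the deposited log2 values was removed, which gave whole reads within 0.0001 for 99.998% of values. The RPKM values given and fitted kept that prior. For 25 genes whose symbol was missing or had the form of a date, the symbol was looked up by the Ensembl ID.

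Log2(RPKM + 1) was fitted in R 4.3.3 with limma 3.58.1 (trend, 3 groups together, no block) over genes that reached 0.1 RPKM in 3 or more libraries, with Benjamini-Hochberg adjustment over all 16364. Fold changes are on that scale, which understates those of low genes. The fit was tested on simulated reads with known fold changes, drawn independently for each library. They held no effect shared by replicate number and no difference in neutrophil reads between libraries, so that test does not cover either. Python 3.11.15 was used for tables and figures. The rule for values in every library took called genes (up to 12), up to 8 genes without overlap of AECs and SECs, the 6 most abundant, the 4 most variable within groups, and *Irf1*, *Irf7*, *Irf9* and *Stat2*. The 47 genes and all lists were chosen with earlier results of these data known. The 20 alternatives were 11 other settings (pseudocount, filter, quantile scaling, variance model, library weights, voom on recovered reads, only the groups compared, replicate block, and libraries 3 and 4 only) and leaving out each of the 9 libraries. For AECs against SECs, the fit of only the groups compared uses all 9 libraries and so repeats the reported fit.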

Additional observations from a re-analysis of the deposited data

How the results depend on the processing

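Counts of called genes among the 47 moved as follows. For AECs against SECs (6 in the reported fit), weights per library gave 15, the replicate block gave 9 (adding *Gbp3*, *Gbp4* and *Oas1a*), and leaving out 1 library gave 3 to 8. The share of all tested genes called was 4.93% in the reported fit, 10.5% with weights, 8.15% with the block and 1.62% to 6.02% with 1 library left out. For Nestin-GFPbright AECs (6), weights gave 16, the block gave 12 (*Gbp3*, *Oas1a*, *Oas2*, *Oasl1* and *Oasl2* added as higher and *Iigp1* as lower), and leaving out 1 library gave 2 to 8, where 4.58% of all genes were called in the reported fit and 12.6%, 8.5% and 1.72% to 5.49% in these. For Nestin-GFPdim AECs (4), a fit of only the groups compared gave 1 (*Lgals3bp*), libraries 3 and 4 alone gave 2 (*Lgals3bp* and *Rsad2*), the block gave 4, and leaving out 1 library gave 0 to 5, where 1.95% of all genes were called in the reported fit and 1.15%, 1.13%, 3.94% and 0.397% to 2.59% in these. Between the AEC groups all of the 20 alternatives gave 0. The cause was not tested. The libraries share replicate numbers, and the labels do not say what a number marks. Of the 9 same-number pairs, 8 had deviations that correlated above 0.1 (-0.212 to 0.784). Pairs of different numbers ran from -0.713 to 0.498, and 5 of the 9 libraries correlated best with both of their own number. What libraries of the same number share was not tested. The reported fit had no block, and the block is given as an alternative. Over all genes, voom called 340 higher and 554 lower for AECs, 321 and 461 for Nestin-GFPbright AECs, and 65 and 72 for Nestin-GFPdim AECs. The median log2 fold change of the 47 genes was 0.29 to 0.49 for AECs, 0.30 to 0.53 for Nestin-GFPbright AECs, 0.25 to 0.44 for Nestin-GFPdim AECs and -0.03 to 0.20 between the AEC groups. Of 1440 values of the 18 genes with values in every library, 57 lost their call, 20 gained one and 0 reversed a called direction. Only genes called in the reported fit (6, 6, 4 and 0 in the 4 comparisons), each under 20 alternatives, could lose a call. The 1440 values are therefore not the base of the 57. With 3 libraries a group, the standard errors of single genes limit what could be called, and intervals from read counts would cover counting error only.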
